A study of Mus musculus with 4 samples.

Results

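The 42 genes described here are proneural transcription factors and genes of the differentiating neuron, grouped by role into 14 proneural and neuronal transcription factors, 14 genes of the cytoskeleton and growth cone, 3 RNA-binding proteins, 7 synaptic and secretory genes and 4 adhesion molecules. They were chosen by name, with earlier results of these data known. They were among 18194 genes on the array with a probe set annotated to 1 gene. The array carries 109 probe sets annotated to 1 of the 42 genes alone, of 45101 in all, and each gene was also represented by its probe set with the highest mean over the 4 arrays, called its brightest probe set below.

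The RNA came from a mouse ESC line with a GFP reporter at Rax, a homeobox gene of the early eye field and rostral forebrain. The cells were reaggregated in growth factor-free medium (SFEBq culture), and at day 4.5 the pooled aggregates were dissociated and sorted by FACS. Rax::GFP- cells are thus all cells without detectable reporter, and Rax::GFP+ cells are those with it. The study sorted them to compare presumptive caudal (GFP-) with rostral (GFP+) cells. Both groups share the same line, medium and day, and each has 2 arrays, which the study's methods call biological duplicates. In such a sorted pool, fewer cells of a type cannot be told apart from less RNA per cell. The values are log2 signals that the authors summarised by RMA, which normalises the probe signals across arrays by quantiles, and all differences below are GFP- minus GFP+ on the log2 scale.

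In the neural tube, proneural factors of the bHLH family commit dividing progenitors to the neuronal fate. They bind a short DNA motif, the E-box, and switch on later factors such as Neurod1 and the Ebf genes, while Notch signaling, through Hes genes and together with Id proteins, holds progenitors back. The committed cells then leave the cell cycle and build the tubulins, neurofilaments, adhesion molecules and vesicle proteins of the axon and the synapse.

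The sort was visible in the arrays. Rax had 8.58 and 8.88 in GFP- cells, against 10.70 and 10.86 in GFP+ cells (difference -2.05, adjusted p = 0.00785 from limma). Irx3, a caudal marker, had 9.67 and 8.95 in GFP- cells, against 6.88 and 6.57 in GFP+ cells (2.59, adjusted p = 0.0175). The GFP- arrays had medians of 5.84 and 5.86, the GFP+ arrays 5.89 and 5.88. The number of arrays limits the precision: with 2 values a group, the smallest p of an exact two-sided permutation test is 0.333. The p-values therefore come from limma, fitted on all probe sets with Benjamini-Hochberg adjustment over all of them at a threshold of 0.05.

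The neuronal genes were mixed. At their brightest probe sets, Neurod1, Syt4 and Cntn2 were higher in GFP- cells, and Insm1, Tubb3, Syt11, Cpe and Nrcam were lower. The other 34 genes did not pass the threshold. With arrays centred on their medians, which added Ebf1 and Stmn2, 5 were higher and 5 lower. The 8 called genes made up 19.0% of the members, beside 8.02% of all genes. Because the members were chosen with earlier results known, these shares and those below are described and not tested. Higher calls were 7.14% of the members beside 5.40% of all genes, and lower calls were 11.9% beside 2.63%. The median difference of the 42 genes was 0.06, beside 0.05 for all genes. Of all 18194 genes, 11262 lay above 0 and 6932 below, and of the members 24 lay above 0 and 18 below. Of those below, 4 (Ebf3, Mapt, Dpysl3 and Elavl4) turned sign after centring of the arrays. The differences ran from -1.14 for Nrcam to 1.09 for Neurog2, and 32 of the 42 were smaller than 0.5 in size. The groups did not overlap at 17 genes that were higher in GFP- cells and 10 that were lower, 27 of 42 in all. Over all genes the shares without overlap were 38.4% on the higher side, 21.7% on the lower side and 60.1% together. Among the 109 probe sets, 8 passed the threshold with higher values in GFP- cells (7.34%, beside 3.64% of all probe sets) and 13 with lower ones (11.9%, beside 3.82%), where 7.47% of all probe sets passed in either direction. By sign alone, 60 of the 109 lay above 0 and 49 below, beside 25738 and 19363 of all 45101 probe sets. A level filter of 5 on at least 2 arrays was passed by 36 of the 42 genes, of which Syt4 passed on its GFP- arrays alone. Neurod4, Atoh1, Nhlh1, Nhlh2, Ebf2 and Dcx did not pass it, and no detection call was used here for these dim signals.

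**Figure D1:**
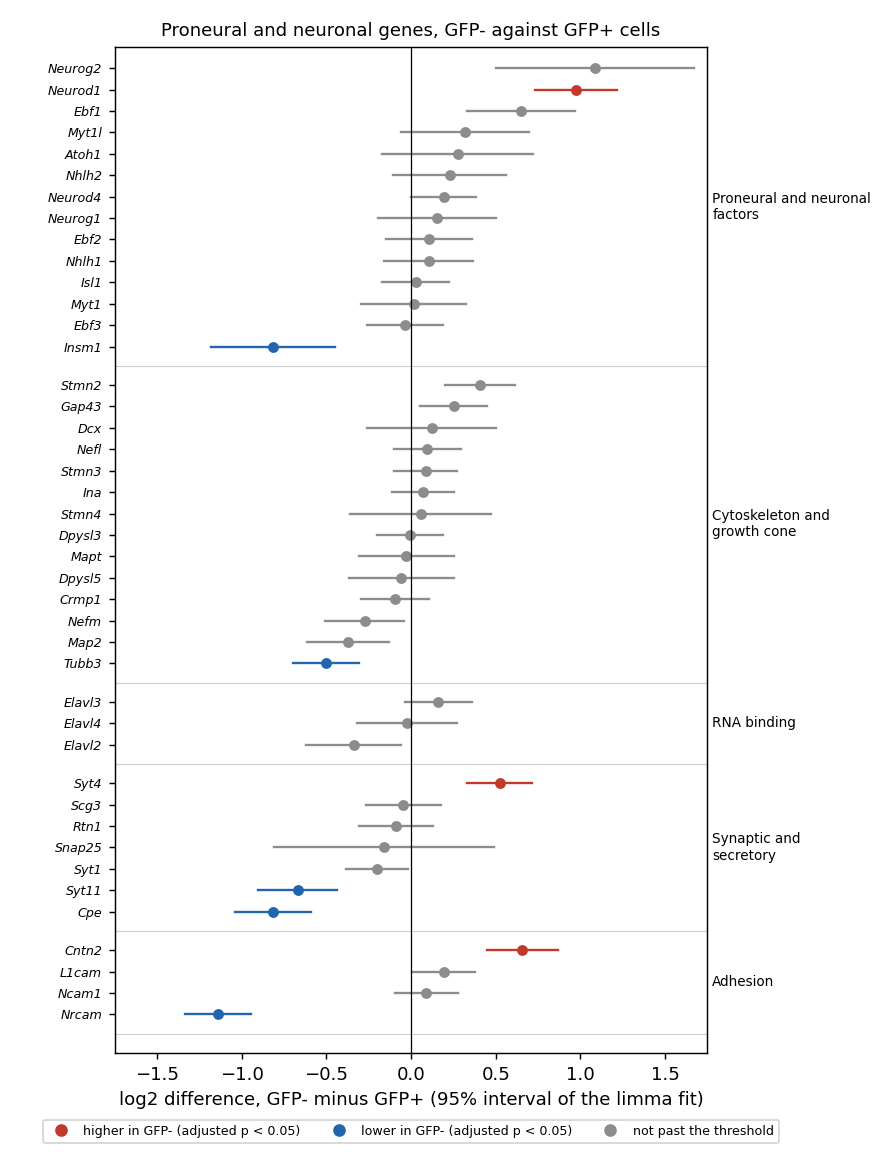
Log2 difference between GFP- and GFP+ cells for each of the 42 genes at its brightest probe set (x axis), ordered by size within 5 roles (y axis), with the 95% interval of the limma fit from 2 arrays per group. Called genes stand on both sides of 0 among the transcription factors, the synaptic and secretory genes and the adhesion molecules.

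Among the upstream factors, calls went in both directions. Of the 14 transcription factors, Neurod1 was higher in GFP- cells (7.14%, beside 5.40% of all genes). Insm1 was lower (7.14%, beside 2.63%), and 12 did not pass. Their median difference was 0.17, beside 0.05 for all genes, and 12 of the 14 lay above 0, beside 11262 of all 18194 genes. Of those 12, Neurog1, Nhlh1, Ebf2, Myt1 and Isl1 overlapped between the groups. The sign turned under some alternatives at Neurog1, Myt1 and Isl1. Most signals of the 14 factors were weak, and 8 of the 14 were below the array median on all 4 arrays.

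Neurod1, a bHLH factor downstream of the neurogenins, had 6.40 and 6.44 in GFP- cells, against 5.53 and 5.36 in GFP+ cells at probe set 1426413_at. Both GFP- arrays were above both GFP+ arrays. The difference was 0.97 (SE 0.09, adjusted p = 0.0146 from limma), a level 1.96-fold higher in GFP- cells. Its less bright probe set gave 0.83 (adjusted p = 0.0224). The Neurod1 difference was 1.06 without GFP+ replicate 1 and 0.89 without GFP+ replicate 2. It was 0.996 without GFP- replicate 1 and 0.95 without GFP- replicate 2. With the replicate number as a block, the call was lost (adjusted p = 0.0796 from limma).

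Neurog2, the proneural factor upstream of Neurod1 in many parts of the nervous system, had the largest positive difference of the 42 genes and did not pass. It had 6.52 and 5.89 in GFP- cells, against 5.16 and 5.07 in GFP+ cells. The 2 GFP- arrays lay above the GFP+ arrays but differed among themselves by more than for Neurod1, and the difference was 1.09 (SE 0.22, 95% interval 0.50 to 1.67, adjusted p = 0.0615). Neurog1, its paralog, had 5.39 and 5.34 in GFP- cells, against 5.05 and 5.38 in GFP+ cells, and the groups overlapped (0.15, adjusted p = 0.524).

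Ebf1, a helix-loop-helix factor of early neuronal differentiation, had 5.80 and 6.10 in GFP- cells, against 5.30 and 5.30 in GFP+ cells. Both GFP- arrays were above the GFP+ arrays, and the difference of 0.65 missed the threshold (adjusted p = 0.0518). Of its 5 probe sets, 4 lay above 0 and 2 less bright ones were called, with differences of 0.75 (adjusted p = 0.0200) and 1.09 (adjusted p = 0.0112). Both of these were dim, below the array median on all 4 arrays. The one at 1.09 had 5.45 and 5.36 in GFP- cells, against 4.38 and 4.25 in GFP+ cells. The paralogs of Ebf1 differed by 0.11 (Ebf2) and -0.03 (Ebf3), with overlapping groups at both.

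Insm1, a zinc finger factor of newly born neurons and endocrine cells, ran the other way. It had 6.78 and 6.68 in GFP- cells, against 7.72 and 7.37 in GFP+ cells at probe set 1455865_at. Both GFP- arrays were lower, with a difference of -0.82 (SE 0.14, adjusted p = 0.0443), and its second probe set differed by -0.57 (adjusted p = 0.0459). The call was lost without GFP+ replicate 1 (-0.64, adjusted p = 0.0878).

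The remaining factors gave no call at any probe set. Isl1, a LIM homeobox gene of motor and sensory neurons, had 6.31 and 6.38 in GFP- cells, against 6.29 and 6.34 in GFP+ cells (difference 0.03). Myt1l, a zinc finger gene expressed in neurons, had 6.20 and 6.004 in GFP- cells, against 5.62 and 5.94 in GFP+ cells (0.32, adjusted p = 0.250). Atoh1, Neurod4, Nhlh1, Nhlh2 and Myt1 differed by between 0.02 and 0.28.

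Promoter sequence is shown for the called genes with an entry in the RefSeq promoter table (GRCm38.p6), because many of the transcription factors described here bind E-boxes. Each window of 300 bases runs from 250 before to 50 after a start site, 5′ to 3′ on the gene's own strand, and capitals mark the E-box motif CANNTG, which reads the same pattern on both strands. The windows are Neurod1 at chr2:79456587-79456886 (minus strand), Cntn2 at chr1:132542891-132543190 (minus strand), Syt11 at chr3:88772550-88772849 (minus strand), Nrcam at chr12:44328635-44328934 (plus strand) and Tubb3 at chr8:123411303-123411602 (plus strand).
Neurod1: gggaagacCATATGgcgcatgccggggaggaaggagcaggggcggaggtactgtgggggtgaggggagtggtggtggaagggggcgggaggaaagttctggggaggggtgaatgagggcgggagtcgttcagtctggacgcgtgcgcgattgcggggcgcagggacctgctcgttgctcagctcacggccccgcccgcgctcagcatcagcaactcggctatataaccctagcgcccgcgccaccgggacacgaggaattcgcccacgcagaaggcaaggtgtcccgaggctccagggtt
Cntn2: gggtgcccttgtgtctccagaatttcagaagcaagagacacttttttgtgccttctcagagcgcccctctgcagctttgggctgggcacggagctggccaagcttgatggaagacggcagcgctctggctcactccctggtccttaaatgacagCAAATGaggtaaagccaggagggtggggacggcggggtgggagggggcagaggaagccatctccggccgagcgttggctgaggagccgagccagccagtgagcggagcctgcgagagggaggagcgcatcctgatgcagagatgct
Syt11: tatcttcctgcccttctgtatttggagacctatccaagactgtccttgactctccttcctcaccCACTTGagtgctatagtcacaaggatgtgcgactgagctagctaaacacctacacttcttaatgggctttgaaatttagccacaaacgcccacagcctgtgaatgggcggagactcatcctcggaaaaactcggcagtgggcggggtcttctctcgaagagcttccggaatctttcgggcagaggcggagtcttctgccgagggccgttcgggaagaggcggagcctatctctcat
Nrcam: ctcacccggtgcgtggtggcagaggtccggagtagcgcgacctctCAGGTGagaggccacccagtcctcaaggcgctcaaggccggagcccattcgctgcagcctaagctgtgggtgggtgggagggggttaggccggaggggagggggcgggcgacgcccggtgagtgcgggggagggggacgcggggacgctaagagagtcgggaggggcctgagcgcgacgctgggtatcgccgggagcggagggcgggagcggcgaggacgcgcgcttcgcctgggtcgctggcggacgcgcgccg
Tubb3: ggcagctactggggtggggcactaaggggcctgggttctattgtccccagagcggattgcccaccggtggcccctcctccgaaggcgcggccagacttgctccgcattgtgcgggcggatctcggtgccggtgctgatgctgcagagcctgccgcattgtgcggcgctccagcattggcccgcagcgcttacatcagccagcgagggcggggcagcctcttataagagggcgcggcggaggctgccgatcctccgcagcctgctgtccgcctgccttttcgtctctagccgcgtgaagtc

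The windows of Neurod1 and Cntn2, which were higher in GFP- cells, and of Syt11 and Nrcam, which were lower, held 1 match each, starting at base 9, 155, 65 and 46 of the window. The Tubb3 window had no match, nor had the window of Neurog2. In all, 22 of the 29 matched genes had a match in at least 1 window, and 34 of 51 windows (66.7%) did, beside 72.3% of 32851 windows of all genes. The form CAGCTG stood in 12 of 51 windows (23.5%), from 9 of the 29 genes, beside 16.3% of all windows. CAGATG or its reverse complement CATCTG stood in 12 of 51 (23.5%), from 7 of the 29 genes, beside 17.2%. All of these are forms of CANNTG. Some windows of a gene overlap, as for Elavl2 and Elavl4, so 1 site can be counted more than once. A match is a string of letters and not a measured binding site, and no match says only that these letters are not in the window.

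**Figure D2:**
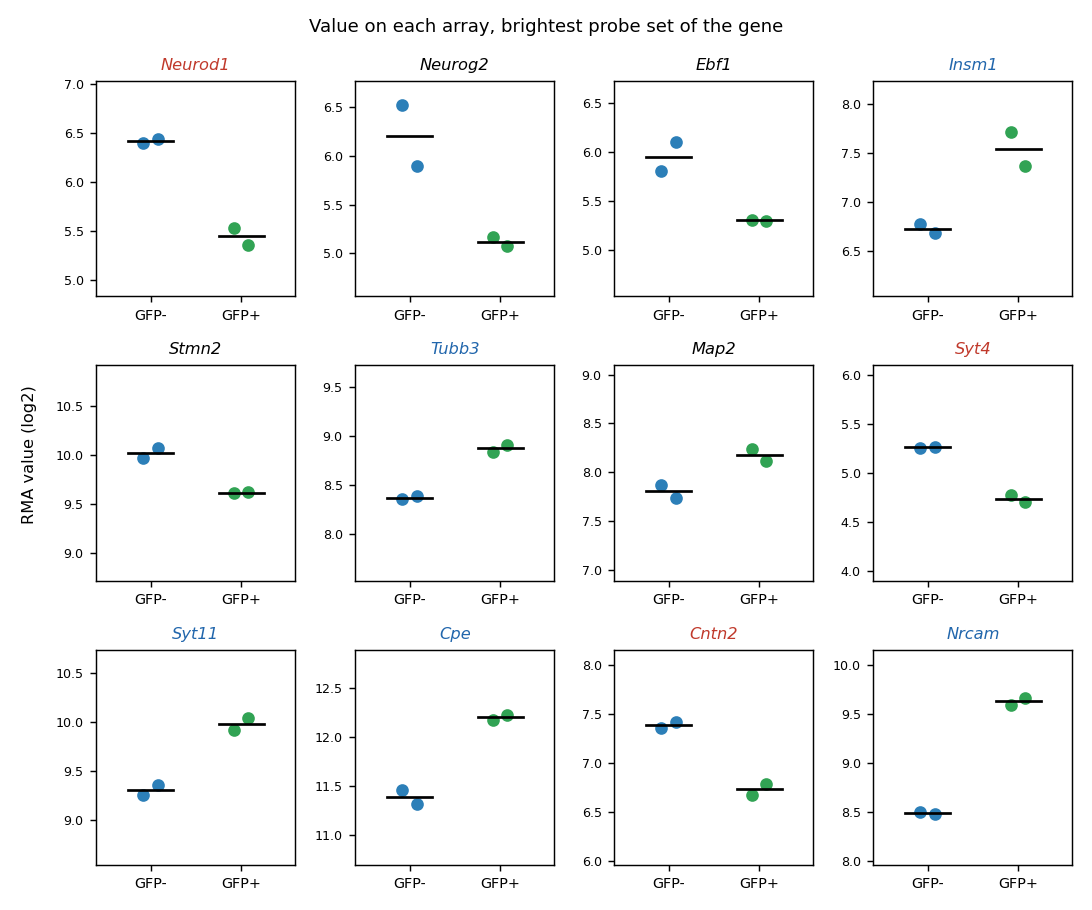
RMA value (log2, y axis) on each of the 4 arrays for 12 genes at their brightest probe sets, GFP- cells in blue and GFP+ cells in green, with a bar at each group mean and every panel spanning 2.2 log2 units. Red gene names were higher and blue names lower in GFP- cells at an adjusted p of 0.05, and black names did not pass.

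The cytoskeletal genes gave 1 call. Of the 14, only Tubb3 passed at the brightest probe set, 7 lay above 0 and 7 below (among them Mapt and Dpysl3, whose sign turned with centred arrays), and the median was 0.03. The share called was 7.14%, beside 8.02% of all genes. Most of these signals were clear of the dim range, with 11 of the 14 genes above the array median on all 4 arrays.

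Tubb3, the neuronal class of beta-tubulin and a common marker of young neurons, had 8.36 and 8.39 in GFP- cells, against 8.84 and 8.91 in GFP+ cells at probe set 1415978_at, its only one. Both GFP- arrays were lower. The difference was -0.50 (SE 0.07, adjusted p = 0.0344), a level 1.42-fold lower in GFP- cells. The call was lost without GFP+ replicate 1 (adjusted p = 0.0991) and without GFP+ replicate 2 (0.0828), with differences of -0.54 and -0.47.

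Map2, a microtubule-associated protein of dendrites, lay in the same direction. Its brightest probe set had 7.88 and 7.74 in GFP- cells, against 8.24 and 8.12 in GFP+ cells, and did not pass (-0.37, adjusted p = 0.0871). All 4 of its probe sets lay below 0, and the dimmest of them was called, with 4.22 and 4.11 in GFP- cells, against 5.17 and 5.10 in GFP+ cells (-0.97, adjusted p = 0.0117).

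Stmn2, a stathmin that binds tubulin in growth cones, lay in the opposite direction. It had 9.96 and 10.07 in GFP- cells, against 9.61 and 9.62 in GFP+ cells, without overlap (0.41, adjusted p = 0.0557). Its other probe set had 9.02 and 9.05 in GFP- cells, against 8.47 and 8.61 in GFP+ cells, and was called (0.49, adjusted p = 0.0447). Gap43, a growth cone protein, differed by 0.25 and did not pass (adjusted p = 0.123).

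The other cytoskeletal genes gave no call at any probe set. Crmp1, of the collapsin response mediator family, had 10.81 and 10.81 in GFP- cells, against 10.95 and 10.85 in GFP+ cells (-0.09, 95% interval -0.30 to 0.11). Ina, the alpha-internexin gene of the neuronal intermediate filament, had 10.63 and 10.65 in GFP- cells, against 10.56 and 10.58 in GFP+ cells (0.07, interval -0.11 to 0.26). Stmn3 had 10.21 and 10.18 in GFP- cells, against 10.10 and 10.11 in GFP+ cells (0.09, interval -0.10 to 0.27). For these 3 genes the intervals held no difference above 0.30 in size. The neurofilament genes Nefl and Nefm differed by 0.10 and -0.27 (Nefm without overlap, adjusted p = 0.143), the collapsin response mediator genes Dpysl3 and Dpysl5 by -0.01 and -0.06, Stmn4 by 0.06, the axonal tau gene Mapt by -0.03, and Dcx, a marker of migrating neurons, by 0.12.

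The RNA-binding Hu proteins, which stabilise neuronal mRNAs, gave no call at any of their 11 probe sets, where 7.47% of all probe sets passed. Elavl2 had 10.78 and 10.65 in GFP- cells, against 11.15 and 10.95 in GFP+ cells (-0.34, adjusted p = 0.135), and 4 of its 5 probe sets lay below 0. Elavl3 had 7.92 and 8.003 in GFP- cells, against 7.81 and 7.79 in GFP+ cells (0.16, adjusted p = 0.261). Elavl4 had 6.36 and 6.15 in GFP- cells, against 6.20 and 6.36 in GFP+ cells (-0.02). Elavl2 and Elavl3 thus lay on opposite sides of 0 without overlap between the groups, and Elavl4 overlapped.

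Synaptic and secretory genes were called in both directions. Of the 7, Syt11 and Cpe were lower in GFP- cells (28.6%, beside 2.63% of all genes), Syt4 was higher (14.3%, beside 5.40%) and 4 did not pass. Their median was -0.16, beside 0.05 for all genes, and 6 of the 7 lay below 0, beside 6932 of all 18194 genes. Of those 6, Scg3, Rtn1 and Snap25 overlapped between the groups, and the sign of Scg3 turned without GFP- replicate 1 (0.011) and that of Snap25 without GFP+ replicate 1 (0.17). Of their 17 probe sets, 5 were called lower (29.4%, beside 3.82% of all probe sets) and 1 was called higher (5.88%, beside 3.64%).

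Cpe, the carboxypeptidase that trims prohormones and neuropeptides in secretory granules, had 11.46 and 11.32 in GFP- cells, against 12.18 and 12.23 in GFP+ cells at probe set 1415949_at. The groups differed by far more than their spread, with a difference of -0.81 (SE 0.08, adjusted p = 0.0172) and a level 1.76-fold lower in GFP- cells. Its other probe set, of the kind whose probes can match other sequences, differed by -0.18 and did not pass. The call was lost without GFP+ replicate 1 (adjusted p = 0.0673).

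Syt11, a synaptotagmin of vesicle trafficking, had 9.26 and 9.36 in GFP- cells, against 9.92 and 10.04 in GFP+ cells at probe set 1429314_at. The difference was -0.67 (SE 0.09, adjusted p = 0.0270). All 5 of its probe sets lay below 0 and 4 were called, at between -0.67 and -0.81, so its direction did not rest on 1 probe set. At the brightest probe set the call was lost without GFP+ replicate 1 (adjusted p = 0.0734) and without GFP+ replicate 2 (0.0634).

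Syt4, another synaptotagmin, lay in the opposite direction at a dim signal, below the array median on all 4 arrays. It had 5.26 and 5.26 in GFP- cells, against 4.77 and 4.70 in GFP+ cells at probe set 1415845_at (0.52, SE 0.07, adjusted p = 0.0304). The call was lost without GFP+ replicate 1 (adjusted p = 0.0929) and without GFP+ replicate 2 (0.0750).

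The vesicle fusion genes did not pass. Syt1, the calcium sensor of synaptic release, had 6.36 and 6.33 in GFP- cells, against 6.54 and 6.54 in GFP+ cells (-0.20, adjusted p = 0.164). Snap25, a SNARE protein, had 6.04 and 6.27 in GFP- cells, against 6.65 and 5.99 in GFP+ cells, the widest spread within a group among the 42 genes (-0.16, interval -0.81 to 0.49). Rtn1, a reticulon of the endoplasmic reticulum, had 7.90 and 7.84 in GFP- cells, against 8.01 and 7.90 in GFP+ cells (-0.09), and Scg3, a secretogranin, differed by -0.05.

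Outside the transcription factors, the adhesion molecules held the largest called differences in both directions at the brightest probe sets. Nrcam and L1cam encode related immunoglobulin-family receptors of the axon, Cntn2 an axonal surface glycoprotein, and Ncam1 the neural cell adhesion molecule. Nrcam was lower in GFP- cells (25%, beside 2.63% of all genes), Cntn2 was higher (25%, beside 5.40%), and the other 2 did not pass.

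Nrcam had 8.50 and 8.48 in GFP- cells, against 9.59 and 9.67 in GFP+ cells at probe set 1434709_at. The difference of -1.14 (SE 0.07, adjusted p = 0.00785) was the only one past 1 in size among the called members at their brightest probe sets, a level 2.20-fold lower in GFP- cells. All 4 of its probe sets were called, at between -1.14 and -1.50. The Nrcam difference was -1.18 without GFP+ replicate 1 and -1.10 without GFP+ replicate 2. It was -1.15 without GFP- replicate 1 and -1.13 without GFP- replicate 2. With the replicate number as a block, the call was lost (adjusted p = 0.0617 from limma).

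Cntn2 had 7.36 and 7.42 in GFP- cells, against 6.68 and 6.79 in GFP+ cells at probe set 1435165_at. Both GFP- arrays were higher, by 0.66 (SE 0.08, adjusted p = 0.0234), and the level was 1.58-fold higher. A second probe set gave 0.68 (adjusted p = 0.0202), and the other 2 of its 4 lay above 0 without a call. The call was lost without GFP+ replicate 1 (adjusted p = 0.0867).

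Ncam1 had 8.30 and 8.29 in GFP- cells, against 8.21 and 8.20 in GFP+ cells (0.09, interval -0.09 to 0.28). None of its 7 probe sets was called, and 1 dim one stood apart at -1.11 (adjusted p = 0.0542). L1cam had 5.37 and 5.41 in GFP- cells, against 5.19 and 5.21 in GFP+ cells (0.19, adjusted p = 0.181). The related genes Nrcam and L1cam thus lay on opposite sides of 0, and the difference between them was not tested.

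**Figure D3:**
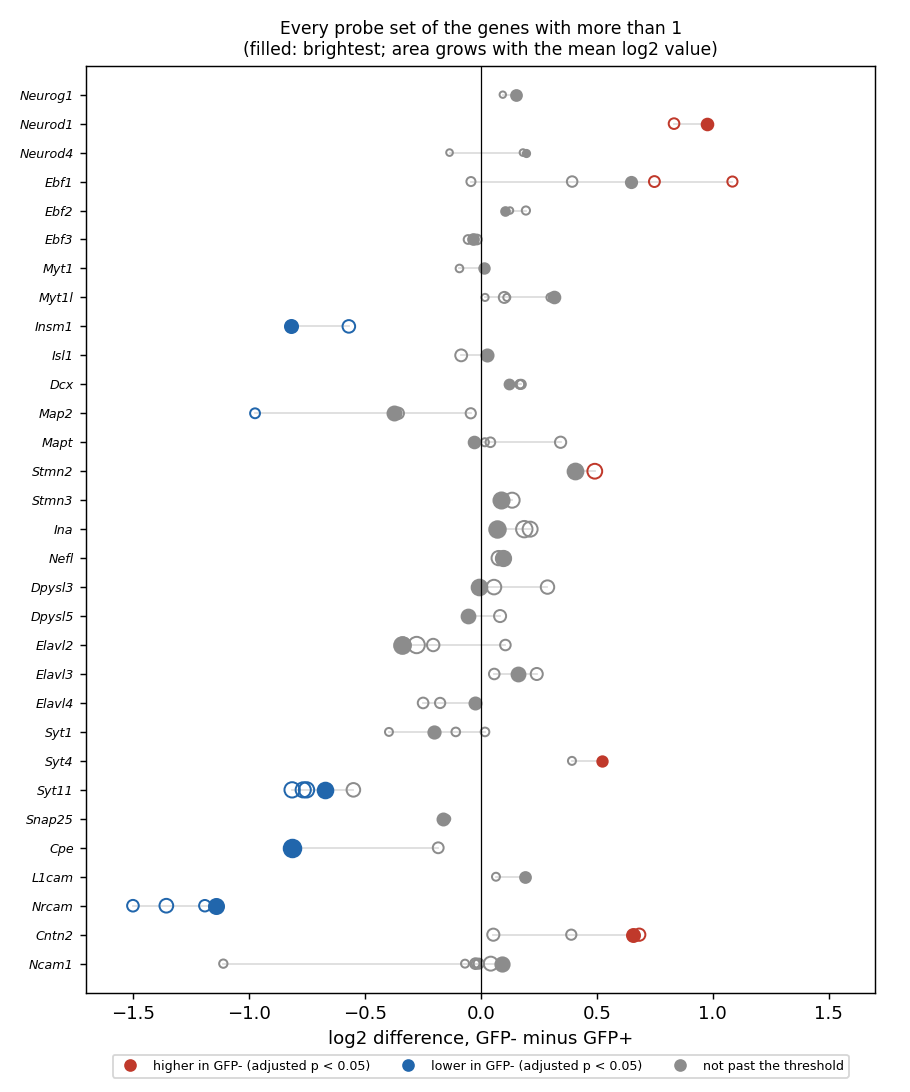
Log2 difference between GFP- and GFP+ cells (x axis) for every probe set of the members with more than 1 probe set (y axis), the brightest filled and the marker area growing with the mean log2 value. The 4 probe sets of Nrcam and the 5 of Syt11 all lie below 0, while those of Ebf1 and Ncam1 spread over more than 1 log2 unit.

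All 8 calls were lost without either GFP- array, with adjusted p between 0.107 for Nrcam and 0.223 for Insm1. At those settings limma called 0 of all probe sets, while 7704 and 7697 had an unadjusted p under the threshold, 12 of the 42 members among them in each case. With the replicate number as a block, limma called 0 of all probe sets, so all 8 calls were lost there too. Neurog2, Ebf1 and Stmn2, which missed the threshold, passed under several alternatives, with adjusted p between 0.0220 and 0.0479 for Neurog2. No called gene changed direction under any alternative, and the sizes of their differences without 1 array stayed between 0.47 and 1.18.

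Other neuronal genes outside the 42 were also called in both directions. Of 44 measured genes, 7 were lower in GFP- cells (15.9%, beside 2.63% of all genes) and 1 was higher (2.27%, beside 5.40%), and their median was -0.08, beside 0.05 for all genes. Dpysl4, a relative of Crmp1, had 8.26 and 8.14 in GFP- cells, against 9.48 and 9.28 in GFP+ cells (-1.18, adjusted p = 0.0127). The neuronal vesicle genes Nsg2 and Nsg1 differed by -0.90 (adjusted p = 0.0277) and -0.54 (0.0372), and Cntn1, a relative of Cntn2, by -0.64 (0.0485). The Cntn1 signal was dim, below the array median on all 4 arrays. It had 4.60 and 4.36 in GFP- cells, against 5.19 and 5.05 in GFP+ cells. Rufy3, Nova1 and Dpysl2 were the other lower genes, and Gng3, a G protein subunit, was the higher one (0.50, adjusted p = 0.0431), all 4 named after their values were seen. Stmn1 and Sox4, which neural progenitors also express, differed by -0.03 and -0.24 and did not pass.

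Genes that hold neurogenesis back were lower in GFP- cells or did not pass. Of 13, 4 were lower (30.8%, beside 2.63% of all genes) and 0 were higher by limma (beside 5.40%), 0 of the 13 had an unadjusted p under the threshold on the higher side, and the median was -0.43. Id2, an inhibitor of bHLH factors, had 10.60 and 10.43 in GFP- cells, against 11.63 and 11.59 in GFP+ cells (-1.10, adjusted p = 0.0115). The Notch target Hes5 had 7.87 and 7.84 in GFP- cells, against 8.97 and 8.87 in GFP+ cells (-1.07, adjusted p = 0.00928). Hes1 differed by -0.89 (adjusted p = 0.0111) and Id3 by -0.59 (adjusted p = 0.0246). Rest, which represses neuronal genes outside neurons, differed by 0.17 (adjusted p = 0.235), and Notch2 by -0.25 (adjusted p = 0.112).

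Pluripotency and endoderm markers differed between the groups, and whether they differed more than the neuronal genes was not tested. Of 8 pluripotency markers, 7 were higher in GFP- cells (87.5%, beside 5.40% of all genes), with a median of 2.78, and the sum of their unlogged values was between 10649.5 and 11159 in GFP- cells, against 1656 to 1738 in GFP+ cells. Nanog (3.51), Tdgf1 (3.10), Dppa5a (3.01) and Zfp42 (2.89) led them, and Esrrb did not pass. Of 8 endoderm markers, 6 were higher in GFP- cells (75%), with a median of 2.12 and a sum of 3124 to 3569 in GFP- cells, against 723 to 940 in GFP+ cells. Sox17 (3.09), Amn (2.36), Gata6 (2.23) and Foxa2 (2.10) led them, and Afp and Apoa1 did not pass.

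Neural progenitor markers were split. Of 9, Pax6 (-1.45), Cdh2 (-0.96), Sox1 and Sox3 were lower in GFP- cells (44.4%, beside 2.63% of all genes). Sox1 and Sox3 were named after their values were seen. Fabp7 (2.58) and Vim (0.71) were higher (22.2%, beside 5.40%). The sum of unlogged values was 14627 to 15439 in GFP- cells, against 20813 to 20957 in GFP+ cells. Bright genes weigh most in it, and the brightest were Sox2 (log2 means 12.88 in GFP- and 13.12 in GFP+ cells) and Cdh2 (11.46 and 12.42). Sox2 (-0.24) and Msi1 (-0.33) did not pass. Of 7 measured neural crest and placode markers, Foxd3 was higher (1.93; 14.3%, beside 5.40% of all genes) and Eya1 was lower (-0.75; 14.3%, beside 2.63%). Sox10 and Pax3 differed by -0.02 and 0.32 and did not pass. The sum was 662 to 708 in GFP- cells, against 688 to 702 in GFP+ cells. The part of these cell states in the neuronal differences was not tested.

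**Figure D4:**
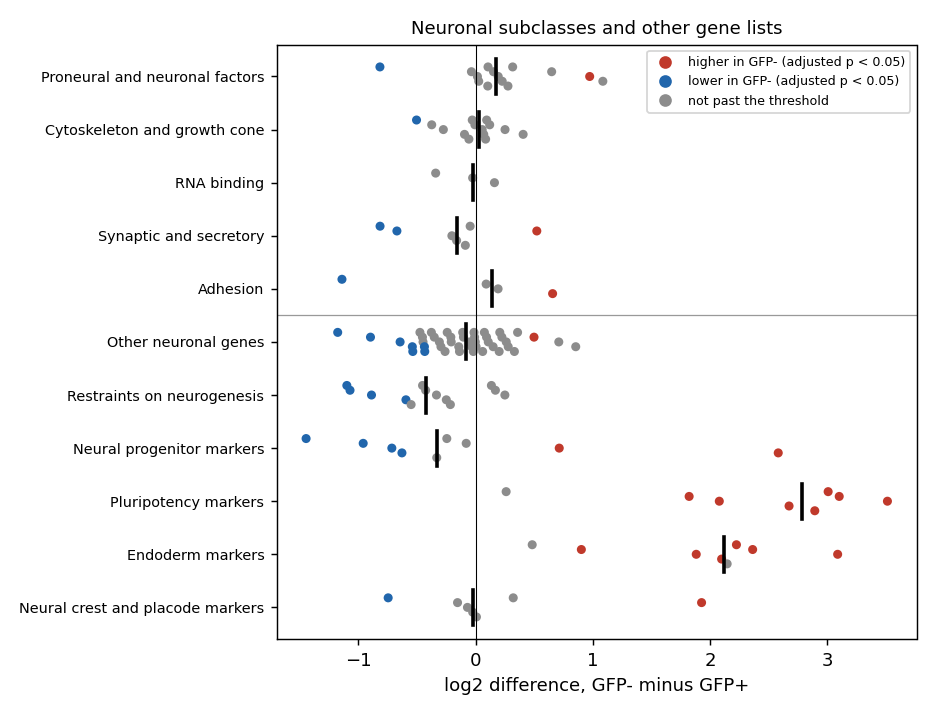
Log2 difference between GFP- and GFP+ cells (x axis) for each gene at its brightest probe set, in the 5 roles of the 42 genes (above the line) and in 6 other lists (below it), with a bar at each median. The medians of the neuronal roles lie between -0.16 and 0.17, those of the pluripotency and endoderm markers at 2.78 and 2.12.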

How the data were processed

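RNA of 2 Rax::GFP- and 2 Rax::GFP+ samples was hybridised to Affymetrix GeneChip Mouse Genome arrays. The authors summarised the scans by RMA (R 2.13.0 per the submitters' processing notes) and deposited 1 background-corrected, normalised log2 value per probe set and array. Sequencing depth does not apply, and the number of arrays limits the precision. The deposited log2 values of all 45101 probe sets, 64 control probe sets included, entered a 2-group fit without filter (limma 3.58.1, R 4.3.3) with 2 residual and 2.52 prior degrees of freedom, checked first on simulated data. The p-values were adjusted by Benjamini-Hochberg over all probe sets. GEO's platform annotation named the genes, and 932 probe sets with several symbols and 9211 with none named no gene. Probe sets ending in _x_at, whose probes can match other sequences, were the brightest of Stmn3, Hes5, Vim, Sox17, Esrrb and Apoa1. They were also the brightest of Hes6, Stx1a and Srrm4 among the other neuronal genes. Promoters are from RefSeq (GRCm38.p6), and 29 of the 42 genes matched an entry.

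The 42 genes, their roles and the 6 other lists were chosen with earlier results of these data known, so a list is described by counts and a median and not tested. Values per array are given for members past the threshold at any probe set and for the 3 brightest of each role that did not pass. Outside this rule, they are also given for Neurog1, the paralog of Neurog2. Of each other list, up to 4 passing genes with the largest differences and up to 2 bright genes that did not pass are named, and the text says where a further gene was named after its values were seen. As alternatives, the fit was repeated with a replicate block, with centring on array medians, with quantile normalisation, with an intensity trend in the variance, with Storey's q-value, on probe sets of at least 5 on at least 2 arrays, without control probe sets, on the gene means over probe sets, and without each array in turn, when the group left with 1 array took its spread from the other.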

Additional observations from a re-analysis of the deposited data

How the results depend on the processing

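Without 1 array, the calls ranged from 0 to 2 genes higher in GFP- cells, 0 to 3 genes lower, 0 to 6 probe sets higher and 0 to 10 probe sets lower. The labels number the replicates 1 and 2 in both groups and do not say whether a number marks a shared culture. Replicate 1 minus replicate 2 correlated at -0.05 between the groups over all probe sets, which cannot show whether the samples were paired. With the replicate number as a block, 0 of the members' genes and probe sets were called in either direction (0 of all probe sets by limma, 11019 with an unadjusted p under the threshold, 14 members among them). The genes higher in GFP- cells were 6 with Storey's q-value, with the filter on dim probe sets, with an intensity trend and with the gene means over probe sets, and 5 with centred arrays. The genes added were Neurog2, Ebf1 and Stmn2. The filter can be met by 1 group alone, and Syt4 met it only on its GFP- arrays. Its values were 5.26 and 5.26 there, against 4.77 and 4.70 in GFP+ cells, so the filtered call of Syt4 is no separate support. Map2 was added on the lower side by the gene means and by the trend, which also added Elavl2. Leaving out the control probe sets left the counts at 3 and 5.

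The sign turned only at genes that were not called. With centred arrays, which moved all differences by 0.04, it turned at Ebf3 (0.0039), Mapt (0.011), Dpysl3 (0.033) and Elavl4 (0.014). With quantile normalisation it turned at Mapt (0.011) and Elavl4 (0.019). With the gene means over probe sets it turned at Myt1 (-0.038), Isl1 (-0.028), Mapt (0.094), Dpysl3 (0.113), Dpysl5 (0.014) and Ncam1 (-0.16). Without 1 array, the difference ranged from -0.013 to 0.32 for Neurog1, from -0.10 to 0.032 for Ebf3, from -0.094 to 0.13 for Myt1, from -0.0061 to 0.061 for Isl1, from -0.059 to 0.30 for Dcx, from -0.13 to 0.079 for Mapt, from -0.15 to 0.27 for Stmn4, from -0.040 to 0.029 for Dpysl3, from -0.20 to 0.083 for Dpysl5, from -0.13 to 0.081 for Elavl4, from -0.49 to 0.17 for Snap25 and from -0.10 to 0.011 for Scg3. The cause was not tested.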
